A study of Mus musculus with 4 samples.

Results

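Tmem163, Mgat5, Catspere1, P2ry14, Med12l, Rgl2, Rabif and Cpne9 are 8 of the 32285 genes in single-nucleus RNA counts from mouse hippocampus. Of these genes, 6 were picked because their counts differed very strongly between single libraries in several types of neuron, and Mgat5 and Med12l were added because they overlap Tmem163 and P2ry14 on the opposite strand. The choice used measured values and no numeric limit, so every difference between libraries given for the 8 genes is a description and carries no test. The working description of the set was genes nearly switched off in single libraries. The values went against that description for most of the genes. P2ry14 and Rgl2 were each lowest in a single knock-in library, with exercise and without exercise respectively, but both were still counted there. Tmem163 and Rabif were low in both knock-in libraries. Catspere1 was near 0 in 3 libraries and present in the fourth. In pooled neurons Cpne9 was highest in the knock-in library with exercise, and Mgat5 and Med12l differed little. In a CA3 cluster, however, Cpne9 was lowest in that library. In an unnamed cluster that it helped to define, Cpne9 had 1 count in 122 nuclei of the knock-in library without exercise. The wild-type library without exercise had 98 counts in 255 nuclei there, and the knock-in library with exercise had 481 in 375 nuclei.

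The study used female C57BL/6J mice, 8 weeks of age on entry, either wild type (WT) or APPNL-G-F, a line in which the endogenous mouse App gene carries the humanised amyloid-beta sequence with the Swedish, Iberian and Arctic mutations, so that App is driven by its own promoter in every cell that uses it. Each genotype was labelled with or without exercise, which gave 4 groups of 1 library each: WT without exercise, WT with exercise, APPNL-G-F without exercise and APPNL-G-F with exercise. The protocol text places animals in cages with a running wheel for 10 weeks without setting the groups without exercise apart, so exercise is taken here from the sample titles. The number of animals behind a library is unstated. The comparisons asked how hippocampal nuclei differ by genotype and by voluntary running, and with 1 library per group none of them has a replicate check. Intervals are 95% intervals from counting error alone (exact Poisson for levels, exact binomial for ratios and shares), and they leave out the spread between animals and preparations.

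The 8 genes belong to unrelated families. Tmem163 is a zinc transporter of vesicle and cell membranes, enriched on synaptic vesicles, and Mgat5 is the Golgi enzyme that adds a branch to N-linked glycans. Rabif (also called Mss4) is a chaperone that binds nucleotide-free Rab GTPases of the secretory pathway, and Rgl2 is an exchange factor that activates the small GTPase Ral downstream of Ras. P2ry14 is a G-protein-coupled receptor for UDP-sugars, and Med12l is the paralogue of Med12, a subunit of the kinase module of the Mediator complex that links transcription factors to RNA polymerase II. Catspere1 is named for an accessory subunit of CatSper, the calcium channel of the sperm tail, and Cpne9 is a copine, a family of calcium-dependent phospholipid-binding proteins.

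On GRCm38 with GENCODE M21, Tmem163 (ENSMUSG00000026347) lies on the minus strand at chr1:127486546-127679548. Its 3′ end runs into the 3′ end of Mgat5 (ENSMUSG00000036155, plus strand, chr1:127205015-127488336) over 1791 bases, of which 152 are exonic in both genes. Rabif (ENSMUSG00000042229) lies on the plus strand at chr1:134494648-134508774, and Catspere1 (ENSMUSG00000102483) on the plus strand at chr1:177808550-177962233. The annotation lists Catspere1 as an unprocessed pseudogene. P2ry14 (ENSMUSG00000036381, minus strand, chr3:59113855-59153618) lies wholly inside Med12l (ENSMUSG00000056476, plus strand, chr3:59005825-59318682), and none of its exonic bases overlap an exon of Med12l. Rgl2 (ENSMUSG00000041354) lies at chr17:33929543-33937687 and Cpne9 (ENSMUSG00000030270) at chr6:113282307-113305627, both on the plus strand. The sources used here do not state whether the counting used strand or introns, so reads of P2ry14 and of Med12l over the same bases cannot be told apart, nor can reads of Tmem163 and Mgat5 within their short overlap. Most of Tmem163 and of Mgat5 lies outside that overlap.

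The promoter windows of the 4 genes with the largest drops or gains are shown because their base composition differs, from CpG-rich to CpG-poor. Each window covers 250 bases before and 50 after the RefSeq start on GRCm38.p6, is written 5′ to 3′ on the strand of the gene, and has every CpG in capitals. Tmem163 is at chr1:127677972-127678271 (minus strand), Rabif at chr1:134494389-134494688 (plus), Catspere1 at chr1:177808169-177808468 (plus) and the most upstream of the 4 listed P2ry14 starts at chr3:59153443-59153742 (minus).
Tmem163: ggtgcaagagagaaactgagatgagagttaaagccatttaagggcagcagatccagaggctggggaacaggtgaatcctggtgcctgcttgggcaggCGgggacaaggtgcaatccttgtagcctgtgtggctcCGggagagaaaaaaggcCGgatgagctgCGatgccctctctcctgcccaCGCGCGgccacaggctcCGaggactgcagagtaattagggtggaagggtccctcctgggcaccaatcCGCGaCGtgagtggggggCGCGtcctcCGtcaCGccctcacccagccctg
Rabif: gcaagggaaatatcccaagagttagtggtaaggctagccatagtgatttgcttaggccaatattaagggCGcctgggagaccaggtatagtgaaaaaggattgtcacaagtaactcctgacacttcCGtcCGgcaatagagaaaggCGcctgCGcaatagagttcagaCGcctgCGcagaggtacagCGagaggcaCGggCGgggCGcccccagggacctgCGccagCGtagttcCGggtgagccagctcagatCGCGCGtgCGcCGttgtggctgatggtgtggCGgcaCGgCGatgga
Catspere1: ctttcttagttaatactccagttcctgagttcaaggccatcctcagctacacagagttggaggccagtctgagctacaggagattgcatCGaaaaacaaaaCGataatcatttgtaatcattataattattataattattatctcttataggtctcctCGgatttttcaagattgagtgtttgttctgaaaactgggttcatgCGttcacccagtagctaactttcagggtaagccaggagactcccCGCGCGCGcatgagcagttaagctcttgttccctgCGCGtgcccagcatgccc
P2ry14: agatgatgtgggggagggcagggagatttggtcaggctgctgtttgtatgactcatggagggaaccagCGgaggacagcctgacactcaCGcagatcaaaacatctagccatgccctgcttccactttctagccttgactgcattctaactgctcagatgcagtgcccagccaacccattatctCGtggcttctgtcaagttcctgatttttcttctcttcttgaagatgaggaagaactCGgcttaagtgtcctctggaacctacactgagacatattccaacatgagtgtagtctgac

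Over all 32851 promoters in the RefSeq table the median was 7 CpGs. The Tmem163 window held 15 CpGs, more than 65.4% of all promoters, and the Rabif window held 22, more than 76.9%. The Catspere1 window held 10 and the P2ry14 window 4, the latter above only 31.4% of promoters. Of the other members, Mgat5 had 18, Med12l 30, Rgl2 19 and Cpne9 11. Searched on both strands, CCAAT occurs in 37.4% of all promoters, GGGCGG (the GC box) in 35.7% and TATAAA in 13.6%. Rabif held CCAAT and GGGCGG, Tmem163 held CCAAT alone, and Catspere1 and this P2ry14 window held none of the 3. The windows of the 2 genes that were low in both knock-in libraries thus had CCAAT in common, a motif that Mgat5 and Cpne9 also held. The Tmem163 window starts from the RefSeq start, which lies inside the longer GENCODE gene.

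The libraries kept 10213, 6508, 9278 and 8745 nuclei (in the order WT without exercise, WT with exercise, APPNL-G-F without exercise, APPNL-G-F with exercise, which holds for every list of 4 values from here on), with median depths of 6451, 7392, 5120 and 6146 UMIs (unique molecules counted) per nucleus. Between 66 and 97 cell barcodes of each library also occurred in another library. Nuclei were clustered and named by fixed marker genes; granule cells of the dentate gyrus, CA1 and CA3 pyramidal cells and inhibitory neurons, summed as pooled neurons, gave 6369, 3921, 5400 and 4631 nuclei with 36185018 to 54542921 UMIs per library. Levels are UMIs per 1000000 UMIs of the same class (CPM). Libraries did not mix evenly: the knock-in library with exercise had 95% of its granule cells in a cluster apart from the one that held 89.8% to 98.2% of those of the other 3 libraries, and its CA3 cells were mainly in another cluster too. Oligodendrocytes were split the same way, with 86.7% and 88.1% of the WT nuclei in cluster 3, 92.1% of those of the knock-in without exercise in cluster 5 and 97.1% of those of the knock-in with exercise in cluster 6. A class level can therefore differ between libraries through the mix of clusters, and values within a cluster are given where they change the picture. Summed levels of the 6 microglial markers in pooled neurons were 15.99, 13.7, 23.4 and 26.2 CPM, and oligodendrocyte markers gave 276, 262, 307 and 381 CPM, with no marker at 0. Their part in the differences below was not tested.

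**Figure D1:**
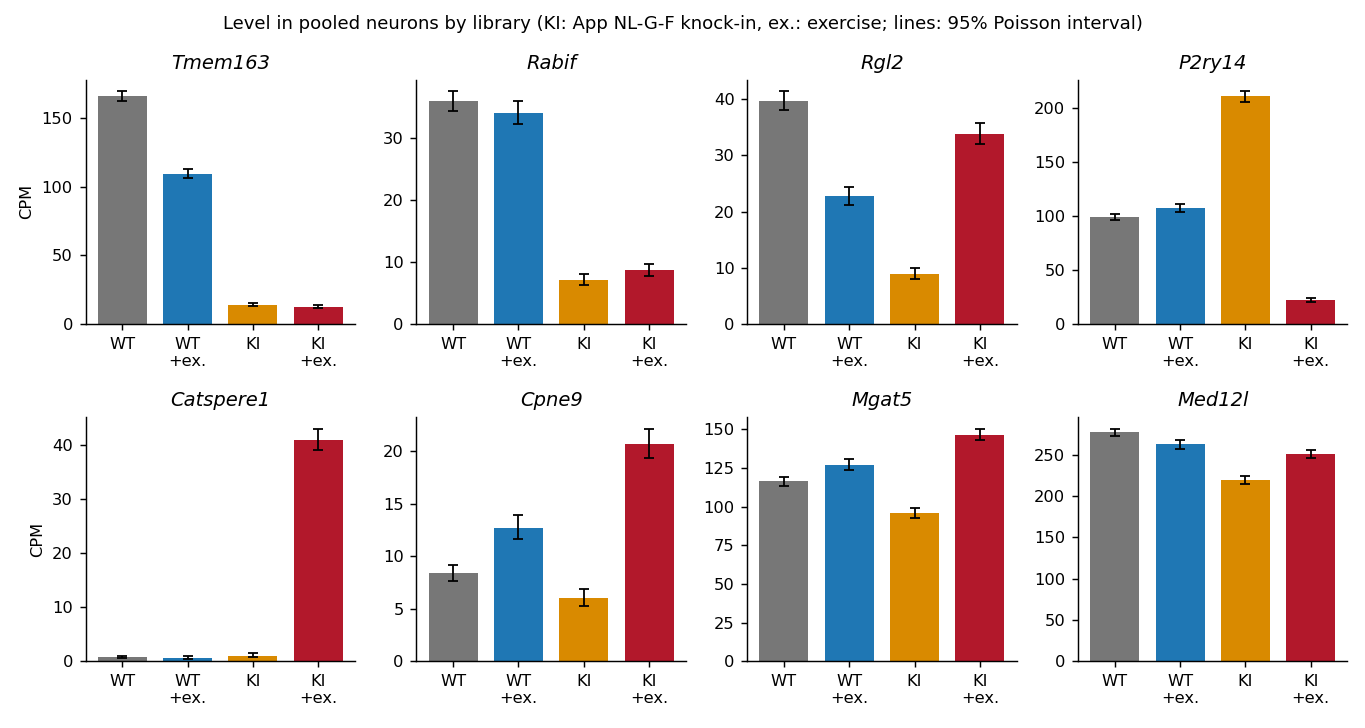
Level of each of the 8 genes in pooled neurons (CPM, linear axes from 0, 1 panel per gene) in the 4 libraries, with 1 bar per library and 95% Poisson intervals. Tmem163 and Rabif are low in both knock-in libraries, Rgl2 in the knock-in library without exercise and P2ry14 in the one with exercise, while Catspere1 stands out only in the latter.

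In pooled neurons the ratio of the highest to the lowest library was 59.1 for Catspere1, 13.3 for Tmem163, 9.47 for P2ry14, 5.02 for Rabif, 4.41 for Rgl2 and 3.42 for Cpne9. Among 15692 genes measured, the median ratio was 1.56, and 3.63% of genes reached 4-fold. Mgat5, at 1.53, and Med12l, at 1.26, were both below that median. Catspere1 ranked 9 and Tmem163 39 from the top, so neither was the most extreme gene of the series.

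**Figure D2:**
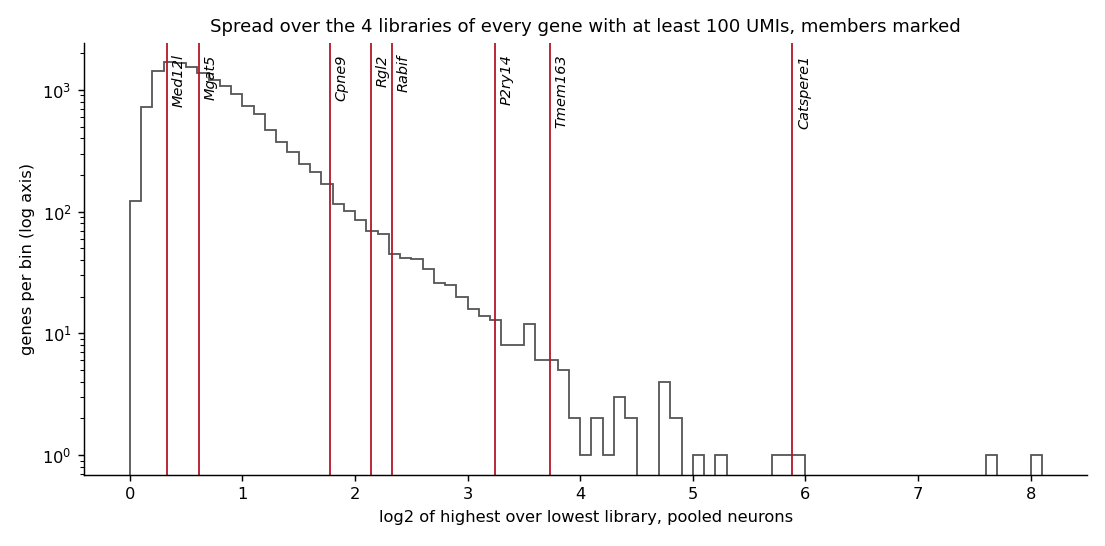
Distribution over 15687 genes of the log2 ratio of the highest to the lowest library in pooled neurons, drawn as a step histogram with the 8 genes marked; 5 genes with no UMI in at least 1 library are not drawn. Mgat5 and Med12l lie at or below the bulk of all genes, and the other 6 lie in the upper tail.

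Counting a gene as past the limit when the 2 libraries of a comparison differed by 4-fold or more, with at least 100 UMIs over both, the shares of all genes past it in pooled neurons were as follows. For genotype without exercise 0.314% of genes were past 4-fold and 3 of 7 members with enough UMIs were (Tmem163, Rgl2 and Rabif, all lower in the knock-in). For genotype with exercise the share was 0.871%, with 3 of 8 members (Tmem163 and P2ry14 lower, Catspere1 higher in the knock-in). For exercise in WT it was 0.0141% with 0 of 7 members. For exercise in the knock-in it was 2.35%, with P2ry14 lower and Catspere1 higher, 2 of 8. The members were picked on these differences, so the counts show nothing beyond the choice. The median log2 ratio of all genes was 0.22 for genotype with exercise, -0.14 for exercise in WT and 0.10 for exercise in the knock-in, and the members' ratios stand beside those shifts.

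The same counts were made in single neuron classes, where a smaller class reaches the minimum of 100 UMIs less easily. For genotype without exercise, 0.171% of genes were past 4-fold in granule cells (3 of 7 members), 0.209% in CA1 (3 of 7), 0.17% in CA3 (2 of 7, Tmem163 and Rabif) and 0.113% in inhibitory neurons (2 of 6, Tmem163 and Rgl2). For genotype with exercise the shares were 0.952% in granule cells (4 of 8), 0.49% in CA1 (3 of 8), 0.344% in CA3 (2 of 8, Catspere1 and P2ry14) and 0.417% in inhibitory neurons (3 of 8). Exercise in WT gave 0.00862%, 0.0088%, 0.0405% and 0.0107% in granule, CA1, CA3 and inhibitory neurons, with no member past 4-fold in any of them. Exercise in the knock-in gave 2.36% in granule cells (4 of 8), 1.79% in CA1 (3 of 8), 1.33% in CA3 (2 of 7) and 1.41% in inhibitory neurons (2 of 7). For exercise in the knock-in, Catspere1 and P2ry14 were past 4-fold in all 4 classes, Rgl2 in granule and CA1 cells, and Cpne9 in granule cells.

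Tmem163, the zinc transporter, stood at 166, 109, 14.1 and 12.5 CPM in pooled neurons (9052, 4257, 511 and 509 UMIs). Both knock-in libraries were far below both WT libraries, and the WT library with exercise was below the one without. The knock-in to WT log2 ratio was -3.56 (-3.69 to -3.43) without exercise and -3.13 (-3.27 to -3.00) with exercise. The exercise ratio was -0.60 (-0.65 to -0.55) in WT and -0.18 (-0.36 to 0.002463) in the knock-in. Over all deposited barcodes, with no filter and no classes, the genotype ratios were smaller, at -2.35 without and -1.52 with exercise, and the latter was no longer past 4-fold.

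The size of the Tmem163 difference depended on the cell type. Granule cells, the main cell of the dentate gyrus, held 167, 104, 2.07 and 4.12 CPM, and the 2.07 rested on 26 UMIs in 2563 nuclei. CA1 cells held 187, 132, 21.6 and 22.4 CPM, CA3 cells 177, 112, 25.7 and 36.9 CPM, and inhibitory neurons 101, 64.5, 11.2 and 5.73 CPM. In WT the 3 excitatory classes lay close together, whereas in the knock-in libraries their clusters spread apart. The main CA1 cluster held 187, 128, 4.49 and 6.89 CPM, near the granule values, and a smaller CA1 cluster held 181, 142, 45.6 and 47.2 CPM, with 180 of the 237 and 203 of the 255 CA1 UMIs of the knock-in libraries. CA3 was split likewise, with 169, 106, 16 and 13.4 CPM in one cluster and 191, 137, 44.6 and 57.7 CPM in the other, which held most CA3 nuclei of the knock-in with exercise.

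Cells outside the 4 pooled neuron classes did not all follow. Oligodendrocyte precursor cells held 311, 168, 261 and 287 CPM, with log2 genotype ratios of -0.25 (-0.70 to 0.18) without and 0.78 (0.37 to 1.21) with exercise. Cajal-Retzius neurons, the reelin-producing cells of the outer molecular layers, had the highest level of the named classes in every library, at 499, 1040, 693 and 976 CPM from 33 to 99 nuclei. Mature oligodendrocytes held 187, 164, 66.4 and 72.1 CPM. Both WT libraries were mostly in the same cluster, and each knock-in library was mostly in a cluster of its own. In cluster 3, the main one in WT, they held 191, 156, 131 and 72.6 CPM, the last 2 values from 30 and 7 UMIs. Astrocytes held 87.3, 45.9, 7.96 and 16.2 CPM, the last 2 values from 1 and 7 UMIs. Cortical excitatory neurons held 219, 158, 127 and 98.8 CPM, and subicular neurons 156, 110, 37.6 and 44.2 CPM. Microglia held 168, 72.8, 62.9 and 132 CPM, from 39, 4, 14 and 129 UMIs. A small unnamed cluster with markers of both oligodendrocytes and their precursors, of 4 to 25 nuclei per library, held 1260, 1100, 1270 and 1849 CPM. The knock-in libraries thus held Tmem163 UMIs at WT-like levels in some cell types and very few in others.

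Within pooled neurons the remaining Tmem163 UMIs of the knock-in libraries were unevenly spread. A UMI was seen in 64.3%, 54.9%, 5.20% and 5.81% of nuclei, and in 21.2%, 14.9%, 1.36% and 1.40% after each nucleus was thinned to 1500 UMIs. The top 1% of nuclei held 7.18% and 7.56% of all Tmem163 UMIs in the WT libraries, and 45% and 48.1% in the knock-in libraries. No class of nuclei is known to lack the gene, so the share that free RNA alone would give was not measured. Over the 17 clusters with at least 50 nuclei in every library, the highest cluster was 3.56 and 3.65 times the lowest in the WT libraries, 146 times in the knock-in without exercise and 79.1 times in the knock-in with exercise. Both knock-in libraries were below both WT libraries in 16 of the 17, the exception being the precursor cells, and they were past 4-fold below both in 6.

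**Figure D3:**
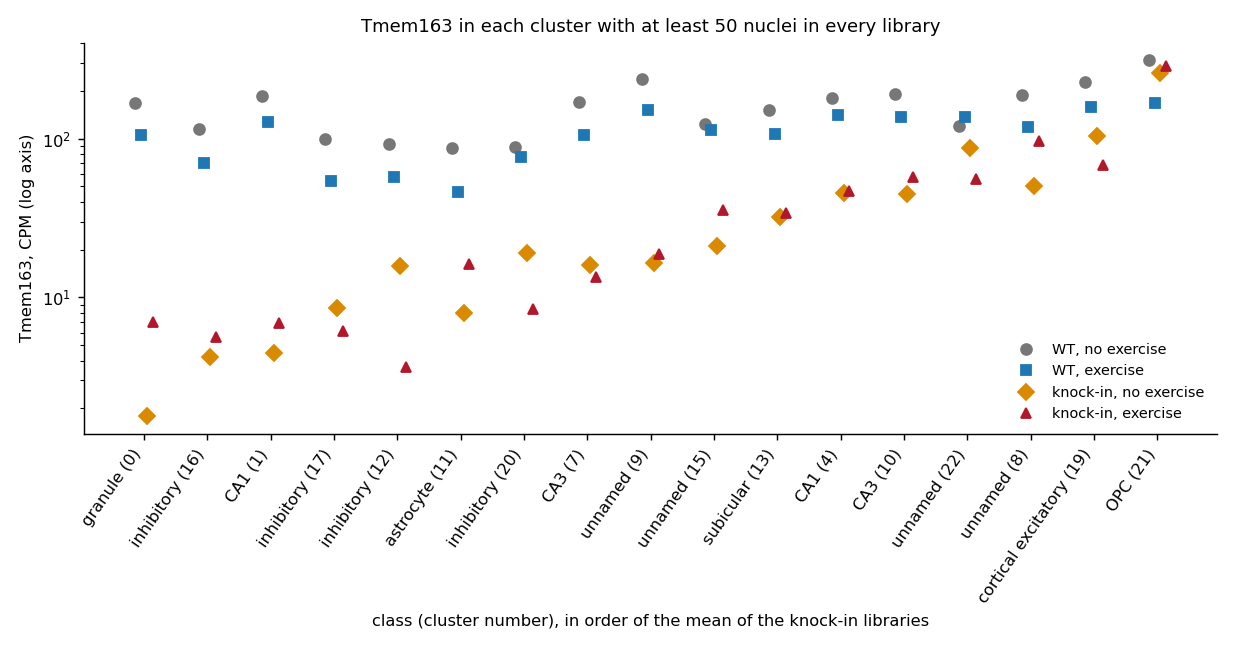
Tmem163 level (CPM, log axis) in each of the 17 clusters with at least 50 nuclei in every library, 1 symbol per library, drawn without intervals. The 2 WT libraries stay within 45.9 to 311 CPM across clusters, and the 2 knock-in libraries range from 1.79 to 287 CPM, meeting the WT values in the precursor cells.

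Mgat5, which meets Tmem163 tail to tail, showed no such loss. It stood at 116, 127, 95.7 and 147 CPM in pooled neurons (6341, 4946, 3463 and 5976 UMIs). The knock-in without exercise was lowest in 17 of 17 clusters and the knock-in with exercise highest in 16. The log2 genotype ratio was -0.28 without and 0.21 with exercise, the latter close to the all-gene median of 0.22, and the exercise ratio was 0.13 in WT and 0.62 in the knock-in. Astrocytes held 385, 494, 247 and 591 CPM, against 92.1, 98.4, 75.5 and 134 CPM in granule cells. Per kilobase of gene, pooled neurons held 0.860, 0.567, 0.0732 and 0.0647 CPM of Tmem163 and 0.410, 0.449, 0.338 and 0.518 CPM of Mgat5. Tmem163 was therefore above Mgat5 per length in WT and below it in the knock-in. The kit reads 3′ ends and intron counting is unstated, so counts need not rise with gene length. Without that division, Tmem163 was below Mgat5 in WT with exercise as well, at 109 against 127 CPM.

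Rabif, the Rab chaperone, stood at 35.8, 34.0, 7.13 and 8.64 CPM in pooled neurons (1953, 1323, 258 and 352 UMIs). The 2 WT libraries lay side by side, with a log2 exercise ratio of -0.07 (-0.18 to 0.03), and the 2 knock-in libraries were lower by a similar step. The genotype ratio was -2.33 (-2.52 to -2.14) without exercise. With exercise it was -1.98 (-2.15 to -1.81), just short of 4-fold, and -2.14 with TMM scaling (edgeR's trimmed mean of M-values), just past it. A UMI was seen in 24.7%, 26.1%, 4.44% and 6.61% of pooled neurons.

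Rabif levels were similar across the neuron classes within each library. Granule cells held 37.7, 37.2, 6.05 and 7.88 CPM, CA1 cells 34.8, 30.9, 7.83 and 8.52, CA3 cells 35.3, 33.9, 6.94 and 9.82, and inhibitory neurons 33.6, 32.4, 8.52 and 10.6 CPM. Oligodendrocytes, at 36.8, 39.7, 14.3 and 14.9 CPM, and their precursors, at 39.7, 40.5, 8.28 and 6.56 CPM, were low in the knock-in libraries too. Across the 17 clusters the highest level was 1.6 and 1.76 times the lowest in the WT libraries, and 7.3 and 3.13 times in the knock-in libraries. Both knock-in libraries were below both WT libraries in 16 of them. The exception was astrocytes, at 42.0, 30.2, 31.9 and 4.63 CPM, where the third value rested on 4 UMIs. Precursor cells thus had low Rabif, from 2 and 5 UMIs, and WT-like Tmem163 in the same knock-in libraries.

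Rgl2, the Ral exchange factor, stood at 39.6, 22.7, 8.98 and 33.8 CPM in pooled neurons (2162, 884, 325 and 1379 UMIs). The knock-in without exercise was lowest, the WT library with exercise came next, and the other 2 were highest. The log2 genotype ratio was -2.14 (-2.32 to -1.97) without exercise and 0.57 (0.45 to 0.70) with exercise. The exercise ratio was -0.80 (-0.92 to -0.69) in WT and 1.91 (1.74 to 2.09) in the knock-in, of opposite sign.

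The knock-in without exercise was lowest in each neuron class. Granule cells held 37.4, 22.2, 8.11 and 32.7 CPM, CA3 cells 32.2, 16.2, 9.26 and 24.1 CPM, and inhibitory neurons 58.2, 31.3, 13.8 and 46.0 CPM. In 17 of 17 clusters the knock-in without exercise was lowest, and in 17 of 17 the WT library with exercise was below the WT library without. The knock-in with exercise was less uniform, and in 1 CA3 cluster, at 27.6, 13.5, 7.90 and 10.4 CPM, it too was below both WT libraries. Outside those clusters, Cajal-Retzius cells held 70.6, 7.70, 12.1 and 27.8 CPM, with 1 UMI behind the second value. Microglia held 108, 72.8, 53.9 and 140.1 CPM, from 25, 4, 12 and 137 UMIs. At most 6 Rgl2 UMIs were seen in any one pooled neuron, and a UMI was seen in 27.0%, 19.0%, 5.72% and 24.8% of them.

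**Figure D4:**
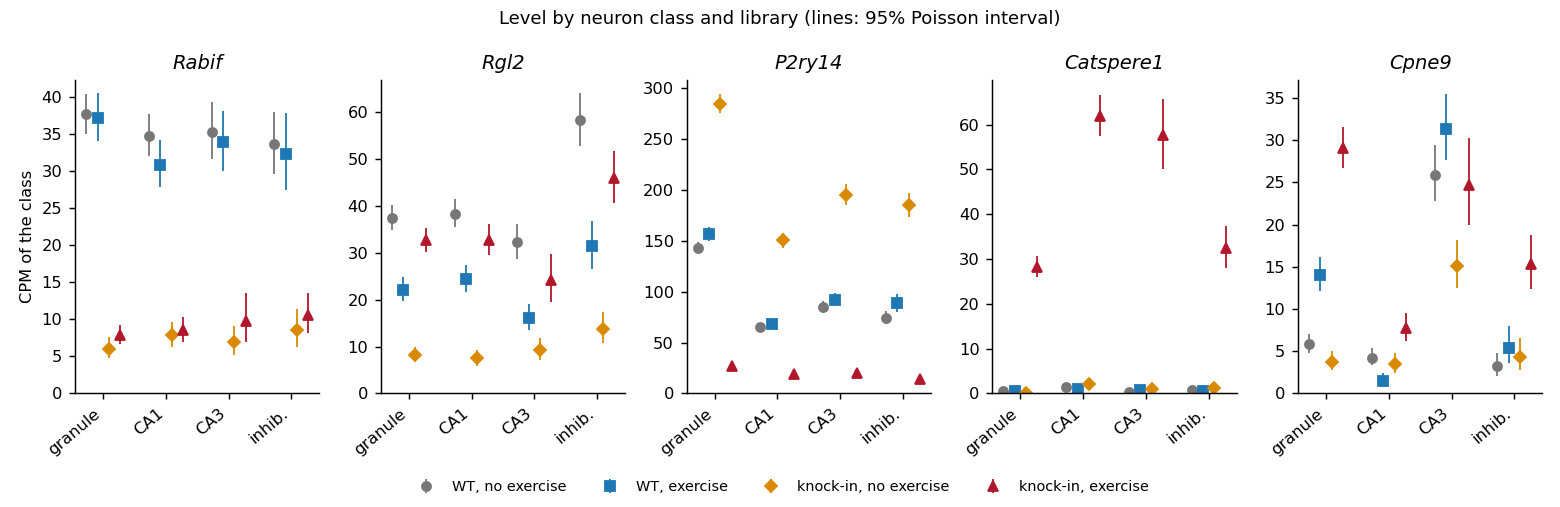
Levels (CPM) of Rabif, Rgl2, P2ry14, Catspere1 and Cpne9 in granule, CA1, CA3 and inhibitory neurons of the 4 libraries, with 95% Poisson intervals. For the first 4 genes the libraries that stand apart are the same in each class, whereas Cpne9 is highest in the knock-in library with exercise in granule, CA1 and inhibitory neurons but not in CA3.

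P2ry14, the UDP-sugar receptor, stood at 98.99, 108, 211 and 22.3 CPM in pooled neurons (5399, 4185, 7637 and 908 UMIs). The 2 WT libraries were close, the knock-in without exercise was above them and the knock-in with exercise far below. The log2 genotype ratio was 1.09 (1.04 to 1.14) without exercise and -2.27 (-2.38 to -2.17) with exercise, and the exercise ratio was 0.12 (0.06 to 0.18) in WT and -3.24 (-3.35 to -3.15) in the knock-in. Only the knock-in library with exercise was low, and it still held a P2ry14 UMI in 15.9% of its pooled neurons, against 48.1%, 55.3% and 66.6% in the others.

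P2ry14 was lowest in the knock-in with exercise in each neuron class. Granule cells held 143, 157, 284.5 and 27.2 CPM, CA1 cells 65.5, 68.1, 150.4 and 18.6, CA3 cells 84.8, 92.1, 195 and 20.2, and inhibitory neurons 74.0, 88.6, 184.9 and 14.3 CPM. In 17 of 17 clusters the knock-in with exercise was lowest and in 16 the knock-in without exercise was highest. Precursor cells showed the same low value, at 123, 116, 149 and 26.2 CPM. Mature oligodendrocytes held little in any library, at 13.4, 14.8, 18.7 and 10.1 CPM.

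Med12l, which contains P2ry14 on the other strand, stood at 277, 263, 220 and 251 CPM in pooled neurons (15115, 10223, 7959 and 10241 UMIs). It was lowest in the knock-in without exercise, in 16 of 17 clusters, with log2 genotype ratios of -0.33 without and -0.06 with exercise. The exercise ratio was 0.19 in the knock-in and -0.08 in WT, and the latter changed sign under other scalings (0.04 with TMM, 0.07 with median-of-ratios factors). Granule cells had the most among the 4 neuron classes, at 364, 329.5, 292 and 299 CPM. Oligodendrocytes had the least of the 11 classes compared (endothelial cells and fibroblasts left out), at 58.5, 52.1, 37.4 and 116 CPM.

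Setting both genes of the locus side by side within the same nuclei gave a ratio that does not depend on the library total. For each Med12l UMI, granule cells held 0.393, 0.475, 0.975 and 0.0909 P2ry14 UMIs, CA1 cells 0.325, 0.344, 0.907 and 0.0976, CA3 cells 0.312, 0.344, 0.943 and 0.0892, and inhibitory neurons 0.331, 0.402, 1.03 and 0.0638. The ratio was near 1 in each of these 4 classes of the knock-in without exercise and under 0.1 in each with exercise. In precursor cells it was 0.573, 0.494, 0.783 and 0.104, and in oligodendrocytes 0.228, 0.284, 0.5 and 0.087. In both, as in the 4 neuron classes, the knock-in without exercise was highest and the knock-in with exercise lowest. Cajal-Retzius cells, at 0.431, 1.12, 0.944 and 0.141, were highest in WT with exercise, and microglia, at 0.08, 0, 0.188 and 0.0541, were lowest there. Those WT values rested on few counts: 18 P2ry14 and 16 Med12l UMIs in Cajal-Retzius cells, and 0 and 21 in microglia.

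Further receptor genes lie within Med12l on the opposite strand, among them P2ry12 and Gpr171. P2ry12, the ADP receptor that marks microglia, stood at 14.2, 13.9, 26.6 and 5.20 CPM in pooled neurons, highest and lowest in the same libraries as P2ry14. In microglia, where its own transcript is abundant, P2ry12 stood at 772, 909.5, 714 and 363 CPM (179, 50, 159 and 355 UMIs), or 3.58, 2.38, 3.31 and 1.92 UMIs per Med12l UMI. Gpr171 stood at 1.43, 1.18, 1.80 and 0.319 CPM in pooled neurons. P2ry13 did not exceed 0.194 CPM in pooled neurons of any library. P2ry12 was therefore lowest in the knock-in with exercise in neurons and microglia alike, by unequal steps.

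**Figure D5:**
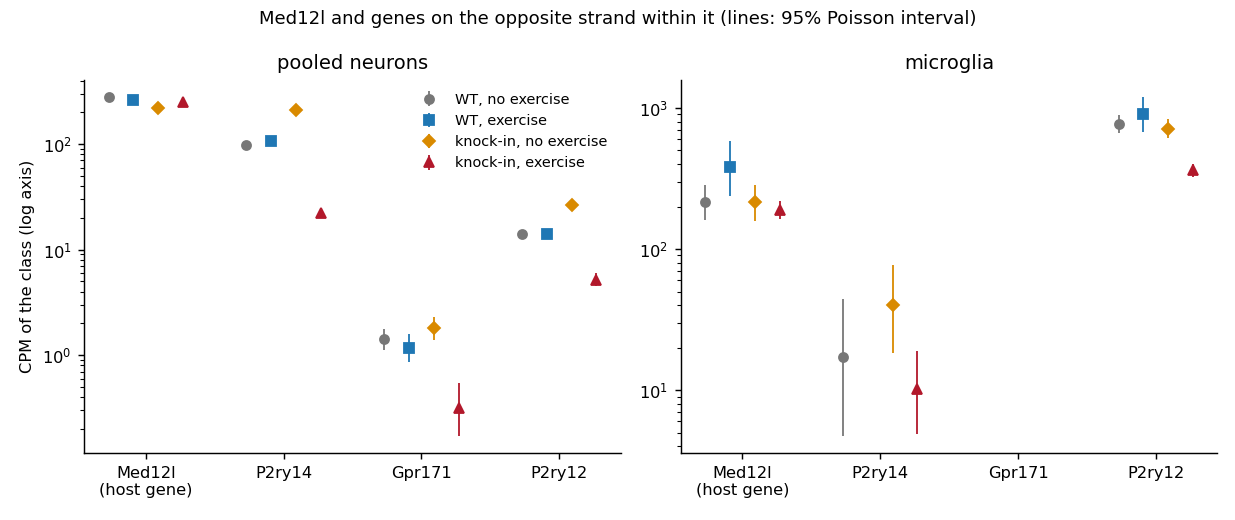
Levels (CPM, log axis) of Med12l and of P2ry14, Gpr171 and P2ry12, which lie inside it on the opposite strand, in pooled neurons and in microglia of the 4 libraries, with 95% Poisson intervals; libraries with 0 UMIs are not drawn. In neurons the 3 nested genes are highest in the knock-in library without exercise and lowest in the one with exercise, while Med12l stays between 220 and 277 CPM.

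The position of P2ry14 inside a gene of the opposite strand was shared by many genes that differed in the same comparison, a description made after the values were seen. Of 300 genes past 4-fold lower with exercise in the knock-in, 182 (60.7%) lie wholly within a gene on the opposite strand, against 4.56% of all genes measured there. Genes in that position had a median log2 ratio of -1.28 for exercise in the knock-in, against 0.12 for genes with no such overlap. For genotype with exercise the medians were -0.69 and 0.23, and 66 of 94 lower genes (70.2%) were in that position against 4.23% of all. For genotype without exercise the medians were 0.51 and -0.07, and for exercise in WT 0.01 and -0.16. Antisense-nested genes as a group were thus high in the knock-in without exercise and low in the knock-in with exercise, as P2ry14 was, and the comparisons share libraries. What part library preparation, counting or the animals had in this was not tested.

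Catspere1, the sperm-channel gene, stood at 0.788, 0.694, 1.08 and 41.0 CPM in pooled neurons (43, 27, 39 and 1671 UMIs). The first 3 libraries had overlapping intervals, from 0.457 to 1.47 CPM, and the knock-in with exercise stood far above them. The log2 ratio was 5.89 (5.34 to 6.49) for genotype with exercise and 5.25 (4.79 to 5.75) for exercise in the knock-in, and its size moved between settings. After thinning to 1500 UMIs per nucleus the ratios were 5.08 and 6.55, and over all deposited barcodes 5.14 and 4.31. Thinned, WT with exercise stood at 1.03 CPM and the knock-in without exercise at 0.372 CPM. Both rested on fewer UMIs than the 27 and 39 above. A UMI was seen in 0.628%, 0.689%, 0.667% and 22.2% of pooled neurons.

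Catspere1 UMIs in the knock-in with exercise were found in every named neuron class, in oligodendrocytes and their precursors, in astrocytes and in microglia. Granule cells held 0.491, 0.499, 0.159 and 28.3 CPM, CA1 cells 1.44, 0.919, 2.18 and 61.9, CA3 cells 0.321, 0.740, 0.953 and 57.6, and inhibitory neurons 0.675, 0.627, 1.14 and 32.3 CPM. Oligodendrocytes had no UMI in either WT library, 2 in the knock-in without exercise and 78 in the knock-in with exercise (18.4 CPM), in 5.2% of nuclei there. Median depth of oligodendrocyte nuclei was 1793, 1739.5, 1355 and 2815 UMIs, against 7490, 8362, 5726 and 7596 for pooled neurons. In 17 of 17 clusters the knock-in with exercise was highest, between 15.7 and 67.6 CPM. Catspere2, a paralogue whose start lies 174873 bases away, stood at 99.4, 104, 92.2 and 237 CPM, and counts of such copies are uncertain because reads could be split between them.

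Cpne9, the copine, stood at 8.42, 12.7, 6.05 and 20.7 CPM in pooled neurons (459, 495, 219 and 844 UMIs). The log2 exercise ratio was 0.60 (0.41 to 0.78) in WT and 1.78 (1.56 to 1.996) in the knock-in, and the genotype ratio was -0.48 (-0.71 to -0.24) without and 0.70 (0.54 to 0.87) with exercise. Both libraries with exercise were above both libraries without. The knock-in exercise ratio was past 4-fold at 2.37 after thinning and at 2.28 with a Leiden resolution of 2.0.

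Granule cells held 5.84, 14.03, 3.74 and 29.1 CPM of Cpne9. Within granule cluster 0 they held 5.35, 13.04, 3.82 and 14.03 CPM, and within cluster 2, which holds most granule nuclei of the knock-in with exercise, 13.4, 31.7, 0 and 29.8 CPM. In neither cluster did the 2 libraries with exercise stand as far apart as in the whole class, and the 0 came from 19 nuclei. CA3 cells, the richest in the first 3 libraries of the 11 classes compared (endothelial cells and fibroblasts left out), held 25.9, 31.3, 15.1 and 24.7 CPM. Their 2 main clusters went different ways: in cluster 7 the values were 29.4, 36.3, 14.3 and 12.8 CPM, lowest in the knock-in with exercise, and in cluster 10 they were 19.2, 12.4, 15.3 and 25.1 CPM, highest there. CA1 cells held 4.25, 1.503, 3.46 and 7.73 CPM and inhibitory neurons 3.24, 5.43, 4.36 and 15.3 CPM. The top 1% of pooled neurons held 46.2%, 37.8%, 48.9% and 24.1% of its UMIs. An unnamed cluster with CA2 and CA3 markers, in which Cpne9 was itself among the leading genes, held 38.05, 27.3, 0.684 and 90.5 CPM, with a single UMI behind the third value. Because Cpne9 helped to define that cluster, its level there is only a description.

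Compared per kilobase of gene, Rgl2 had the highest level of the 8 in the WT library without exercise, at 4.87 CPM, followed by Rabif at 2.54, P2ry14 at 2.49, Med12l at 0.886, Tmem163 at 0.860, Mgat5 at 0.410, Cpne9 at 0.361 and Catspere1 at 0.00513. In the knock-in without exercise the order was led by P2ry14 at 5.31 and Rgl2 at 1.10. In the knock-in with exercise Rgl2 led again at 4.15, Cpne9 followed at 0.888, and Tmem163, at 0.0647, was last. Because counts of 3′ ends need not rise with gene length, these orders may not be orders of transcript level.

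The genes whose pattern over the 4 libraries and 4 neuron classes was most like that of a member were found by Pearson correlation of centred log2 values, over 16 points that share 4 libraries. The search covered 1722 genes with at least 100 UMIs in each of the 4 classes. In each, the highest library was at least 2 times the lowest in pooled neurons. All had thus been chosen for differences between libraries, so the correlations are only a description. Rabif, itself picked on such differences, was closest to Tmem163 (r = 0.95), followed by 5031415H12Rik (0.93), at 33.9, 33.6, 4.64 and 2.85 CPM. Rabif itself was closest to 5031415H12Rik (0.97), Pot1b (0.97) and A930015D03Rik (0.96), all on chromosome 17. With 5 CPM instead of 1 CPM added before the log, Tmem163 on chromosome 1 replaced A930015D03Rik among the 3 closest to Rabif. Rgl2, also on chromosome 17, was closest to Dnase1l2 (0.96), Aars2 (0.96) and Caskin1 (0.95), again all on chromosome 17. The share of the searched genes that lie on chromosome 17 was not counted, so these positions are only a description. P2ry14 was closest to Gm20275 and 5330438D12Rik (0.9965 and 0.9964), at 44.4, 46.3, 93.5 and 11.7 CPM and at 68.6, 73.0, 157 and 13.1 CPM. Catspere1 was closest to Stk10 (0.99), Mgat5 to Jdp2 (0.99), Cpne9 to Rgs6 (0.92) and Med12l to Gm10125 (0.91).

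Neighbouring genes were counted by the same 4-fold range, which 3.63% of all genes reach and which does not measure a shared pattern. Within 1 Mb on either side, 0 of 11 measured neighbours of Tmem163 differed by 4-fold between the highest and the lowest library, and neither did any of 14 for Catspere1 or 33 for Cpne9. Beside Rabif, 1 of 26 did: Lgr6, a receptor for R-spondins, at 46.7, 37.1, 4.89 and 8.49 CPM in pooled neurons and 119, 93.9, 12.7 and 16.5 CPM in granule cells. Lgr6 was thus low in both knock-in libraries, as Rabif was. Beside Rgl2, in the gene-dense major histocompatibility region, 6 of 65 did, among them Col11a2 at 2.05, 2.31, 0.857 and 5.62 CPM and C4b at 0.568, 0.591, 1.47 and 4.76 CPM. C4b has the near-identical copy C4a, at 2.20, 1.11, 0.249 and 1.13 CPM in pooled neurons, so the counts of both are uncertain. Astrocytes held far more, with Col11a2 at 49.8, 50.7, 31.9 and 118 CPM and C4b at 129, 42.3, 39.8 and 243 CPM. The third values there rested on 4 and 5 UMIs. The part of free glial RNA in the neuron values was not tested. For P2ry14 the count was 2 of 16, and for Med12l 3 of 16, which are P2ry14, P2ry12 and Gpr171, described above.

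Across the genome, genes for which both knock-in libraries were past 4-fold below both WT libraries in pooled neurons were Tmem163 and Lgr6 on chromosome 1, Myo7a on chromosome 7, Lims2 on chromosome 18, and 5031415H12Rik, Adgrf5, Gm35550 and Guca1b on chromosome 17. Rabif stood just outside, because its ratio with exercise was short of 4-fold. In the opposite direction, 4 genes on chromosome 17, 2 on chromosome 11, 1 on chromosome 5 and 1 on chromosome 13 were past 4-fold above both WT libraries. Chromosome 17 thus held the most genes in each direction, 4 lower and 4 higher among 765 measured. Its share of genes past 4-fold between highest and lowest library was 5.49%. That share was 3.63% over all genes, 5.72% on chromosome X and 5.29% on chromosome 13. Whether the lines differ in sequence near these genes was not tested.

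Relatives of the members, from lists of the same family or pathway, mostly differed less. Of 19 measured zinc transporters besides Tmem163, none differed by 2-fold between highest and lowest library (median 1.43, highest 1.75), against 25.1% of all genes at 2-fold and a median of 1.56. Of 6 measured Rab partners of Rabif, 2 reached 2-fold (median 1.26), Rab3a, the synaptic vesicle GTPase, at 25.7, 18.9, 32.1 and 14.7 CPM and Rab13 at 2.59, 2.34, 4.86 and 2.28 CPM. Neither was low in both knock-in libraries. Of 8 Ral regulators and GTPases, 3 reached it (median 1.46), and Ralgds, an exchange factor like Rgl2, stood at 28.7, 24.1, 18.0 and 38.3 CPM.

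N-glycan branching enzymes and CatSper subunits differed more often. Of 10 branching enzymes besides Mgat5, 5 reached 2-fold (median 2.11). Of these, Mgat3, Mgat5b and Man2a2 were highest in the knock-in with exercise, as Mgat5 was, with Mgat5b at 54.2, 39.0, 33.0 and 85.2 CPM, whereas Mgat4c was lowest there, at 717, 682, 913.5 and 394 CPM. Of 7 measured CatSper genes out of 11 listed, 4 reached 2-fold (median 2.27), and 2 besides Catspere2 were highest in the knock-in with exercise: Catsperg1 at 2.35, 2.47, 3.51 and 5.32 CPM and Efcab9 at 0.770, 1.03, 1.105 and 2.16 CPM. Of the 2 measured P2Y receptors besides P2ry14, P2ry12 reached 2-fold and P2ry6, at a ratio of 1.40, did not. Among 6 genes of the Mediator kinase module only Med12 did, at 12.5, 8.20, 7.90 and 19.0 CPM. Among 8 copines only Cpne7 did, at 431, 277, 229.7 and 491.5 CPM, and like Cpne9 it was highest in the knock-in with exercise and lowest in the knock-in without.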

How the data were processed

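Nuclei from snap-frozen hippocampus were profiled with the 10x Chromium 3′ v3.1 dual-index kit, 1 library per group. The authors deposited raw UMI counts per gene and barcode; per the submitters' processing notes the counter was Cell Ranger 3.1.0 on mm10, whereas the file headers give version 5.0.1. The 8 genes, their related gene lists and the alternatives were chosen with earlier results of these data known.

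Nuclei with at least 500 genes, 1000 UMIs and under 5% mitochondrial UMIs were scored for doublets against simulated pairs (2 per nucleus), and the top 0.8% per 1000 nuclei were left out (5.51% to 8.98% of nuclei). These limits were passed by 40.7% to 59.7% of the simulated pairs, so doublets remain. Counts were log-normalized to 10000, reduced to 30 principal components of 2000 variable genes, and clustered (15 neighbours, Leiden 1.0) into 42 clusters without integration. Clusters were named from at least 3 markers; how ties and leading genes were handled was set after the clusters were seen, and clusters that failed stayed unnamed. UMIs were then summed per class and library.

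With 1 library per group there was no test. The named genes are the 8 members and, for each, genes among the 3 with the highest correlation, together with listed relatives and neighbours past a fixed fold. Also named are P2ry6, P2ry13, and the genes for which both knock-in libraries were past 4-fold below both WT libraries. Gene models came from GENCODE M21 (32235 of 32285 identifiers matched). Promoters came from RefSeq. Alternatives covered scaling, nucleus filters, doublets, clustering and thinning. The ratio calculation was tested on simulated data. The assay for open chromatin that the design names was not used here. Python 3.11.15, numpy 2.4.6, scipy 1.17.1, pandas 2.3.3, scikit-learn 1.9.0, igraph 0.11.9, leidenalg 0.10.2 and, for TMM factors, edgeR 4.0.16 were used.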

Additional observations from a re-analysis of the deposited data

Results flagged for a closer look

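Several members differed in opposite directions between matched groups, and none of these differences of differences was tested, as each group was 1 library. For Rgl2, the log2 genotype ratio was 0.57 with and -2.14 without exercise, 2.72 apart, and the exercise ratio was 1.91 in the knock-in and -0.80 in WT, by construction also 2.72 apart. For P2ry14, the genotype ratio was -2.27 with and 1.09 without exercise, a difference of -3.36. Its exercise ratio was -3.24 in the knock-in and 0.12 in WT; both signs are opposite, and the same 4 values give the same -3.36. For Cpne9 the genotype ratios, 0.70 and -0.48, were 1.18 apart. For Mgat5 they were 0.21 and -0.28, 0.49 apart, but the all-gene median for genotype with exercise was 0.22, and the Mgat5 ratio was 0.0411 with TMM and 0.0139 with median-of-ratios factors, so its size rests on the scaling. For Med12l the exercise ratios, 0.19 in the knock-in and -0.08 in WT, were 0.27 apart, and the WT value changed sign under other scalings. P2ry12 and the other antisense-nested genes moved with P2ry14 in the same libraries; their part in its difference was not tested.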

How the results depend on the processing

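Over 32 log2 ratios (8 genes, 4 comparisons, pooled neurons) and 12 other settings, 279 of 384 values stayed within the counting interval of the reported one, 103 moved outside it, and 2 changed sign. Those 2 were Med12l for exercise in WT, at 0.0351 with TMM and 0.0664 with median-of-ratios factors. Of the 8 ratios past 4-fold, 7 stayed past it under all 12 settings and Tmem163 for genotype with exercise under 11. Leaving out nuclei whose barcode occurs in another library was one of the 12, and it kept all 8 past 4-fold.

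For Tmem163, genotype without exercise was -3.28 with at least 1000 genes per nucleus, -3.78 with at least 1200 UMIs, -3.81 with no doublets left out, -3.91 at Leiden resolution 2.0, -3.14 with 4000 variable genes, -3.88 with the 8 genes left out of the clustering, -4.05 thinned and -2.35 over all barcodes. Genotype with exercise was -3.30 with TMM, -3.32 with median-of-ratios factors, -2.89 with at least 1000 genes, -2.98 with no doublets left out, -3.30 at resolution 2.0, -2.92 with 4000 variable genes, -3.30 with the 8 genes left out, -3.45 thinned and -1.52 over all barcodes. For Catspere1, thinning gave 5.08 for genotype with exercise and 6.55 for exercise in the knock-in, with fewer UMIs in the lower library of each. All barcodes gave 5.14 and 4.31. For P2ry14, genotype with exercise was -2.38 without mitochondrial genes and the 50 highest genes, -2.44 with TMM and -2.46 with median-of-ratios factors, and exercise in the knock-in was -3.38 in the first of these and -3.14 with 4000 variable genes. The cause of these shifts was not tested.

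The numbers of genes past 4-fold were 45, 121, 2 and 331 (genotype without and with exercise, exercise in WT and in the knock-in). With a minimum of 50 UMIs they were 71, 192, 8 and 448, and with 400 UMIs 11, 59, 0 and 183. No paired analysis was possible because each group is 1 library, and for the same reason no replicate could be left out. Depth limits Catspere1 most, with 27 to 43 UMIs in 3 libraries, and the small glial classes.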
